A study of Gallus gallus with 24 samples.

Results

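The genes of cholesterol and fatty acid synthesis were followed in the chick retina during form-deprivation myopia, the overgrowth of an eye that a diffusing goggle deprives of a sharp image. The list held 31 genes in 4 roles, namely 16 genes of sterol synthesis, 5 sterol regulators, 3 genes of fatty acid synthesis and 7 genes of desaturation and elongation. Probe sets were matched to the genes by the symbol of the platform annotation, and each gene was represented by its probe set of highest mean signal over the arrays. Of the 31 genes, 29 were analysed here, and 27 of these were bright enough to be tested among 26913 probe sets. IDI1 and EBP were not analysed here. SREBF1, which codes for the SREBP form tied mainly to fatty acid genes, and SCD, the stearoyl-CoA desaturase, had probe sets with mean signals of 6.29 and 7.42 over the 24 arrays, below the background level on every array, and were not tested.

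The study hybridised 24 Affymetrix GeneChip Chicken Genome arrays, 1 per eye, with RNA of the retina and the pigment epithelium dissected together. White Leghorn chicks kept under 12 h of light and 12 h of darkness were fitted with a translucent goggle over 1 eye at 1 week of age, at the start of the light phase. The groups were goggled eyes after 3 d, open fellow eyes after 3 d, goggled eyes after 6 h and open fellow eyes after 6 h, with 6 arrays each. The open eye belonged to a goggled bird, so no eye of an untreated chick entered the comparisons. The labels do not say which 2 arrays came from 1 bird. Goggled and open eyes with the same replicate number and time were taken as 1 chick, a pairing inferred from correlations given in the processing section. Goggled 3 d replicate 3 correlated more with open 3 d replicate 2, so counts by chick depend on this pairing. Chicks of 3 d and of 6 h were different birds, and the length of goggle wear, the age of the bird and any difference in the hour of collection cannot be told apart in that comparison. In RNA of a whole tissue, fewer cells of a type and less RNA per cell cannot be told apart either. With 6 arrays a group, their number limits the precision of the values.

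As background, animal cells make cholesterol from acetyl units by way of mevalonate and squalene, and the transcription factor SREBP-2, the product of SREBF2, turns these genes on when sterols run low. SCAP escorts the SREBP proteins to the compartment where they are cut and activated, and the INSIG proteins hold them back when sterols are plentiful. Fatty acid synthase builds saturated chains from the same acetyl units, and elongases and a desaturase turn these into longer and monounsaturated chains. The long polyunsaturated chains that are abundant in photoreceptor membranes are made by other desaturases and elongases from polyunsaturated fatty acids of the diet.

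Markers of rods and cones, bipolar cells, amacrine and horizontal cells, ganglion cells, Mueller glia and pigment epithelium had mean signals above the background level for every marker measured. The background level was taken as a signal of 22.8, the 95th percentile of 57 reporter probe sets that match no chicken gene. The median signal of an array ranged from 30.1 to 36.4 in goggled eyes at 3 d, from 33.3 to 40.1 in open eyes at 3 d, from 35 to 44.1 in goggled eyes at 6 h and from 35.6 to 43.9 in open eyes at 6 h, so the dim end of the arrays was lower at 3 d. The 3′/5′ ratio of the actin control, a sign of RNA integrity, lay between 2.40 and 5.05. Some arrays stood apart in markers of neighbouring tissue. Open 6 h replicate 5, open 3 d replicates 1 and 2 and goggled 3 d replicate 3 were over 1 log2 unit above their group's median in choroid, sclera and vessel markers, and goggled 6 h replicates 5 and 6 and goggled 3 d replicate 3 were over 0.6 above it in striated muscle markers. Calls of members that were lost without these arrays are given below with their adjusted p.

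Goggled and open eyes were compared to learn whether lipid synthesis genes follow the loss of form vision. No member passed the test. At 3 d, 0 of 27 members reached an adjusted p under 0.05 in limma (Benjamini-Hochberg over all probe sets tested), where 0.00743% of all probe sets did, and 3 members had an unadjusted p under 0.05, a level reached by 5.38% of all probe sets. At 6 h the counts were also 0 and 3, against 0% and 2.37% of all probe sets. Over both times they were 0 and 6, against 0.00743% and 6.03%. With the chick as a block no member passed an adjusted p of 0.05 either, and 6 at 3 d, 4 at 6 h and 7 over both times had an unadjusted p under 0.05. Of all 26913 probe sets, 2390, 1234 and 2599 then had such a p, so this background rose with the block too. With the chick as a random block the counts of members were 4, 4 and 7, against 2487, 1275 and 2719 of all probe sets.

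At 3 d the sterol synthesis genes nonetheless lay mostly on the high side of the goggled eye. Values were higher in goggled eyes for 12 of the 14 tested members, where 11163 of all 26913 probe sets were higher. The median log2 difference was 0.15, against -0.03 over all probe sets. At 6 h values were higher for 6 of 14 members, where 12479 of all 26913 probe sets were higher. The median was then -0.05, against -0.01 over all probe sets. Within each of the 6 chicks at 3 d, between 9 and 12 of the 14 genes were higher in the goggled eye, and the chick's median difference lay between 0.07 and 0.22. In the 6 chicks at 6 h the medians lay between -0.06 and 0.12. The counts by chick rest on the same values as the 12 of 14 and were not set against all probe sets. Quantile normalization gave 13 of 14 higher at 3 d with a median of 0.17, and median centring gave 13 of 14 with a median of 0.21. All these counts rest on the brightest probe set of each gene. Of the further probe sets tested, numbered by mean signal, number 2 of MVK, LSS and SC5D was lower at 3 d (-0.14, -0.09 and -0.52). Number 2 of SQLE and HSD17B7 and number 3 of LSS were higher (0.16, 0.04 and 0.03), and none of them passed. Striated muscle markers lay higher in goggled eyes for 4 of 4 tested, with medians of 0.31 at 3 d and 0.94 at 6 h and 0 called in limma (0 at 3 d and 1 at 6 h at an unadjusted p under 0.05), and their part in the members' values was not tested. Their mean log2 level ranged from 4.47 to 6.10 in goggled eyes at 3 d and 4.44 to 4.83 in open eyes at 3 d, and from 4.51 to 7.30 in goggled eyes at 6 h and 4.55 to 4.86 in open eyes at 6 h. Of the 6 muscle markers measured, 3 had mean signals below the background level. Of the other marker lists, some lay lower and some higher in goggled eyes, with 0 called in limma at either time. Pigment epithelium markers were lower for 7 of 9 at both times, with medians of -0.09 at 3 d and -0.15 at 6 h. Bipolar cell markers were lower for 3 of 3 with -0.06 and -0.14, and Mueller glia markers for 5 of 7 and 6 of 7 with -0.05 and -0.11. None of these had an unadjusted p under 0.05. Amacrine and horizontal cell markers were lower for 5 of 7 at 3 d (-0.14, 2 at an unadjusted p under 0.05) and for 2 of 7 at 6 h (0.09). Rod and cone markers were lower for 3 of 5 at 3 d (-0.15, 1 at an unadjusted p under 0.05) and at 6 h (-0.08). Ganglion cell markers were higher for 3 of 4 at both times (0.03 and 0.13). Their part in the members' values was not tested either. Without the arrays high in striated muscle markers, 11 of 14 sterol synthesis genes were higher at 3 d, with a median of 0.19. The change of the goggle effect, 3 d minus 6 h, passed for 0 of 27 members, where 0% of all probe sets passed in limma, and 0 members had an unadjusted p under 0.05, against 2.22% of all probe sets. The replicate block gave 0 members called and 1 at an unadjusted p under 0.05, where 1136 of 26913 probe sets had such a p. The random block gave 0 and 0, where 1139 probe sets did.

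FDFT1, the squalene synthase that commits carbon to sterols, was higher in the goggled eye of 12 of 12 chicks. Its lowest, median and highest signals were 733.4, 795.4 and 954.2 in goggled eyes at 3 d, against 578, 696.5 and 769 in open eyes at 3 d. At 6 h they were 574.8, 660.8 and 704.5 in goggled eyes and 534.3, 557.9 and 649.5 in open eyes. The groups overlapped at both times although every pair of eyes ran the same way. The log2 difference was 0.23 ± 0.08 (SE) at 3 d, 0.19 ± 0.08 at 6 h and 0.21 ± 0.06 over both times, with limma adjusted p of 0.761, 1 and 0.65. Over 13 alternative settings the adjusted p of the last value ranged from 0.143 to 0.831. The SEs and adjusted p beside log2 differences between the eyes, here and below, come from the fit of group means. That fit does not pair the eyes of a chick, so these SEs are not those of the paired difference. For FDFT1 the SD of the goggled minus open difference of a chick was 0.11 around the group means (log2).

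SQLE, the squalene epoxidase of the next step, was higher in the goggled eye of 11 of 12 chicks. Signals had a lowest, median and highest value of 527.4, 552.1 and 562.3 in goggled eyes at 3 d, against 379.7, 449.8 and 547.3 in open eyes. At 6 h they were 482.2, 552.7 and 818.6 in goggled eyes and 417.9, 459.2 and 667.3 in open eyes. The goggled eyes at 3 d lay close together, at the upper edge of the wider range of the open eyes. On the log2 scale the difference was 0.24 ± 0.12 (SE) at 3 d, 0.23 ± 0.12 at 6 h and 0.23 ± 0.08 over both times, with limma adjusted p of 0.923, 1 and 0.782. Without goggled 6 h replicate 4, the array with 818.6, the difference at 6 h was 0.13. A dimmer probe set of SQLE, with a mean signal of 265.1, was higher in the goggled eye of 8 of 12 chicks, by log2 differences of 0.16 at 3 d, 0.01 at 6 h and 0.08 over both times (limma adjusted p = 0.938, 1 and 0.947).

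Further along the pathway, NSDHL, which takes part in removing methyl groups from the sterol ring, was higher in 5 of 6 goggled eyes at 3 d. The lowest, median and highest of its signals were 196.9, 246.3 and 391.3 in goggled eyes at 3 d and 173, 198.4 and 214.7 in open eyes at 3 d. At 6 h its range was 162.2 to 257.1 in goggled eyes and 144.7 to 240.4 in open eyes. Thus the goggled eyes at 3 d reached beyond the range of the open eyes, with overlap at the low end. This made a log2 difference of 0.36 ± 0.15 (SE) at 3 d and 0.09 ± 0.15 at 6 h, with limma adjusted p of 0.874 and 1. DHCR7, the reductase that finishes cholesterol, had log2 differences of 0.24 ± 0.15 at 3 d and 0.21 ± 0.15 at 6 h and was higher in 9 of 12 goggled eyes (limma adjusted p = 0.923 and 1). The value of DHCR7 at 6 h was 0.10 without goggled 6 h replicate 1, 0.11 without open 6 h replicate 2, 0.12 without open 6 h replicate 6 and 0.32 without open 6 h replicate 3.

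CYP51A1, the demethylase of lanosterol, ran the other way. Its lowest, median and highest signals were 2.9, 16.5 and 26.8 in goggled eyes at 3 d, against 10.3, 25.4 and 39.8 in open eyes at 3 d. At 6 h they were 20.5, 30.2 and 35.7 in goggled eyes and 23, 32.1 and 45 in open eyes. The goggled eye was lower in 6 of 6 chicks at 3 d and in 4 of 6 at 6 h. These signals straddled the background level, below which lay 5 goggled and 2 open eyes at 3 d and 1 goggled and 0 open eyes at 6 h. The log2 difference was -0.47 ± 0.19 (SE) at 3 d and -0.15 ± 0.19 at 6 h, with limma adjusted p of 0.896 and 1. The value at 3 d was -0.80 with an offset of 4 and -0.19 with an offset of 64 in place of the 16 added to the signals.

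MVD, the decarboxylase that makes the isoprene unit, had lower values in 2 of 6 goggled eyes at 3 d and in 5 of 6 at 6 h. At 3 d its lowest, median and highest signals were 53.8, 66 and 109.7 in goggled eyes and 52.1, 64.7 and 95.8 in open eyes. At 6 h they were 43.1, 45.6 and 59.6 in goggled eyes and 39, 71.4 and 79.4 in open eyes. The ranges overlapped at both times. Its goggle effect at 3 d minus that at 6 h, 0.37 ± 0.21 (SE) on the log2 scale, had the smallest unadjusted p of the members in that comparison, 0.0959 (limma adjusted p = 1). This MVD value was 0.06 without the arrays high in choroid markers, 0.24 without those high in muscle markers and 0.23 with an offset of 64. The next were HSD17B7 with 0.18 ± 0.11, ACACA with -0.39 ± 0.28, HMGCS1 with 0.29 ± 0.21 and MSMO1 with 0.16 ± 0.12, none of which passed.

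**Figure D1:**
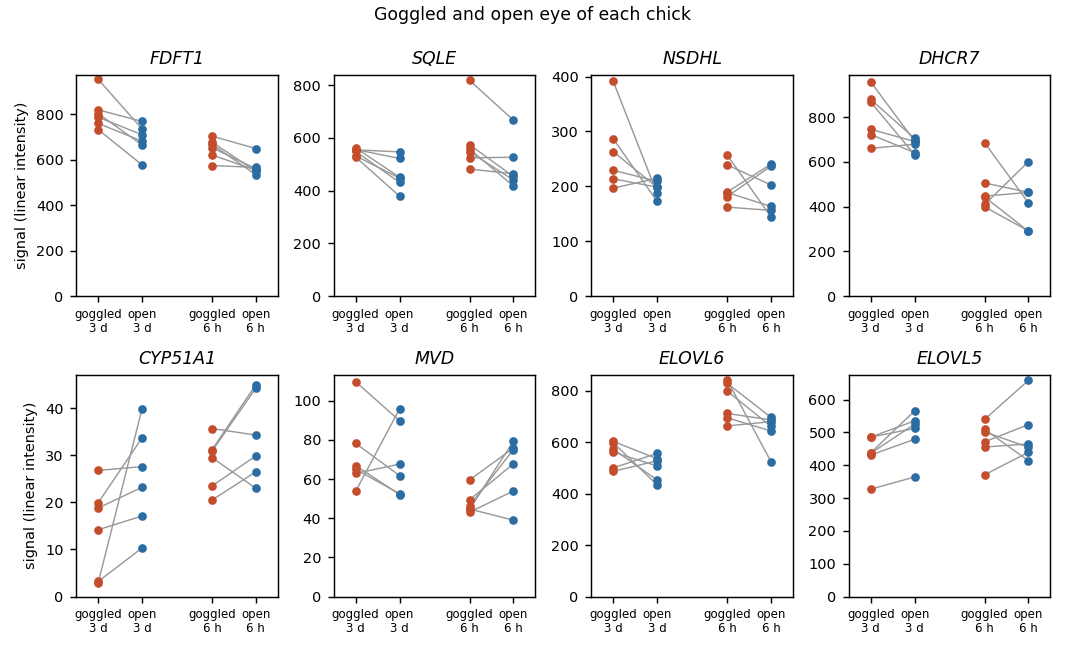
Signals (linear intensity) of 8 members in goggled eyes (orange) and open eyes (blue) of the same chick, joined by a line, at 3 d on the left and 6 h on the right of each panel. FDFT1 was higher in the goggled eye of 12 of 12 chicks and CYP51A1 lower in 6 of 6 at 3 d, and no difference passed the test.

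Regulators and fatty acid genes did not pass between the eyes either. At 3 d, 2 of 4 tested regulators were higher in goggled eyes, with log2 differences of 0.19 for INSIG1, 0.09 for INSIG2, -0.04 for SCAP and -0.11 for SREBF2. At 6 h the differences were 0.13, 0.02, -0.08 and -0.01 in the same order. INSIG1, whose product retains the SREBP complex, was higher in the goggled eye of 10 of 12 chicks. It had 3 probe sets, which gave log2 differences over both times of 0.16, -0.00 and 0.23, none of which passed. In fatty acid synthesis the log2 differences at 3 d were -0.05 for ACLY, -0.21 for ACACA and 0.01 for FASN, and at 6 h they were -0.11, 0.18 and 0.09. Probe set number 2 of these genes gave -0.21, -0.37 and -0.06 at 3 d and 0.22, -0.12 and -0.01 at 6 h. Thus at 6 h each gene's 2 probe sets differed in sign, and none passed. Number 2 of ACACA had a mean signal of 15.4, below the background level. In desaturation and elongation the log2 differences of the brightest probe sets ran from -0.25 for FADS1 to 0.14 for ELOVL6 at 3 d, and FADS1 had -0.04 at 6 h. ELOVL5, an elongase of polyunsaturated chains, was lower in the goggled eye of 6 of 6 chicks at 3 d (log2 -0.19 ± 0.12, SE; limma adjusted p = 0.923) and of 4 of 6 at 6 h. ELOVL6, which lengthens saturated chains, was higher in the goggled eye of 9 of 12 chicks, by a log2 difference of 0.14 ± 0.09 at 3 d and 0.22 ± 0.09 at 6 h (limma adjusted p = 0.923 and 1).

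For the remaining members neither comparison of the eyes passed. The log2 differences at 3 d and 6 h were 0.20 and -0.09 for HMGCS1, 0.05 and -0.05 for MVK, 0.17 and -0.10 for PMVK, 0.21 and 0.06 for FDPS, and 0.11 and -0.04 for LSS. They were 0.12 and -0.05 for MSMO1, 0.14 and -0.05 for HSD17B7, -0.03 and 0.21 for SC5D, 0.06 and -0.09 for FADS2, -0.12 and -0.12 for ELOVL2, and 0.05 and -0.04 for ELOVL4. Of these, ELOVL2, an elongase of the longest polyunsaturated chains, was lower in the goggled eye of 9 of 12 chicks.

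More members passed between the times than between the eyes. In goggled eyes, 7 of 27 members rose at 3 d against 6 h and 2 fell, which is 25.9% and 7.41% of the members, where 4.13% and 8.56% of all probe sets rose and fell (limma, adjusted p under 0.05). In open eyes 5 rose and 1 fell, or 18.5% and 3.7%, where 2.62% and 4.72% of all probe sets did. Over the means of both eyes of a chick, 6 rose and 2 fell, or 22.2% and 7.41%, where 5.24% and 11.7% of all probe sets did. The share of members that fell was thus no higher than that of all probe sets. The median log2 difference of the members was 0.19 in goggled eyes, 0.06 in open eyes and 0.17 over chick means, against -0.08, -0.05 and -0.07 for all probe sets. All probe sets include more dim ones. With the filter at the 50th percentile of signal their medians were -0.03, -0.02 and -0.03, against 0.20, 0.07 and 0.17 for the members. Then 9 members rose and 1 fell in goggled eyes, where 6.63% and 9.76% of all probe sets did. In open eyes 5 and 1 did (4.55% and 6.08%), and over chick means 6 and 2 (8.2% and 12.4%). The goggled and the open eyes came from the same chicks, so these counts are not independent of each other. The list was also chosen with earlier results of these data known. Its shares beside those of all probe sets, here and below, are therefore no independent test.

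The scaling of the arrays set the balance of rises and falls. Of all calls, 32.5% were rises in goggled eyes, against 49.5% after quantile normalization and 67.6% after centring each array on its median. In open eyes the shares were 35.7%, 47.7% and 65.8%, and over chick means 30.9%, 49.0% and 62.8%. Centring moved the median of all probe sets in goggled eyes to 0.03, against -0.08 before. After quantile normalization 8 members rose and 1 fell in goggled eyes, where 4.02% and 4.09% of all probe sets did, 4 and 1 in open eyes (3.05% and 3.36%), and 7 and 2 over chick means (5.96% and 6.21%). After centring the members numbered 11 and 1 in goggled eyes, where 8.51% and 4.09% of all probe sets rose and fell, 6 and 0 in open eyes (5.13% and 2.67%), and 10 and 1 over chick means (10.3% and 6.08%). DHCR7, FDPS, FDFT1, SREBF2, FASN and FADS2 rose in goggled eyes under each of these scalings, as did HSD17B7.

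**Figure D2:**
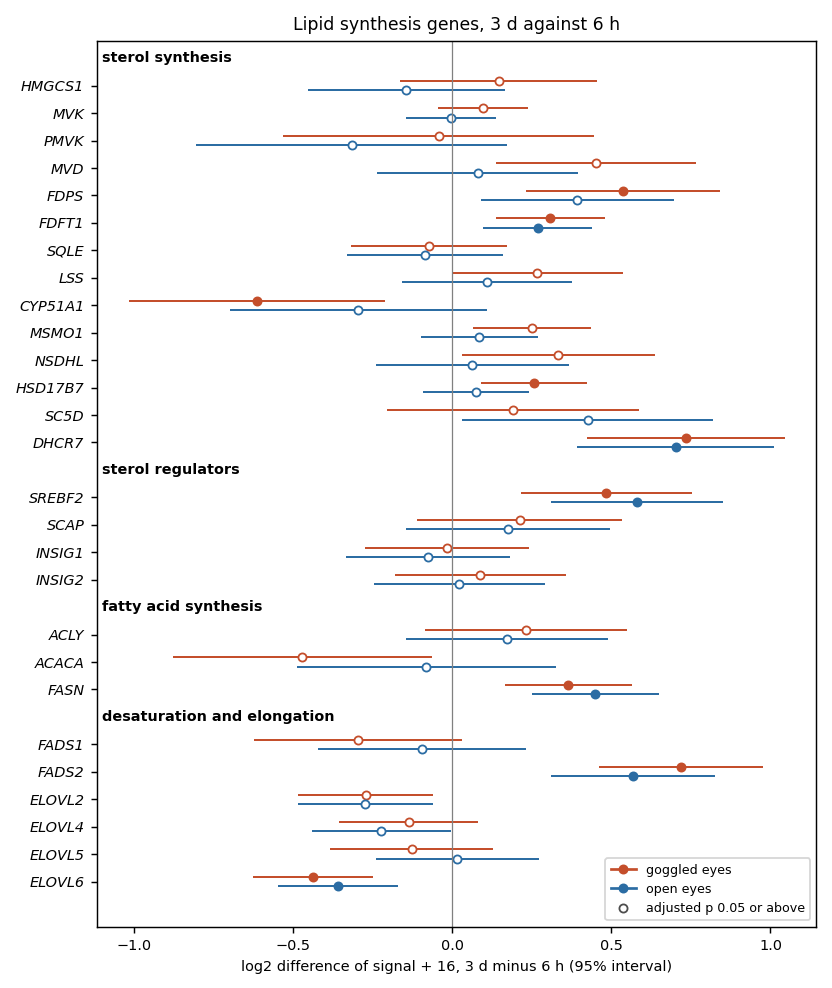
Log2 difference of signal + 16, 3 d minus 6 h, for the 27 tested members by role, in goggled eyes (orange) and open eyes (blue), with 95% intervals; filled points have an adjusted p under 0.05. DHCR7 and FADS2 had the highest values in goggled eyes, and CYP51A1 and ELOVL6, by its brightest probe set, fell there.

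DHCR7 had the largest rise of the sterol synthesis genes. Signals had a lowest, median and highest value of 660.1, 805.6 and 956.4 in goggled eyes at 3 d, against 399, 445.1 and 684.7 in goggled eyes at 6 h. The open eyes gave 632, 685 and 705 at 3 d and 289.8, 440.2 and 601.3 at 6 h. The open eyes at 3 d all lay above those at 6 h, while 1 goggled eye at 6 h reached into the range at 3 d. On the log2 scale the difference was 0.73 ± 0.15 (SE) in goggled eyes, 0.70 ± 0.15 in open eyes and 0.72 ± 0.11 over chick means, with limma adjusted p of 0.00293, 0.00591 and 0.00132. DHCR7 passed in each of the 3 comparisons under every alternative setting tried, with adjusted p up to 0.0299.

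FDFT1 rose as well. The 6 goggled eyes at 3 d, whose signals were given above, all lay above the 6 goggled eyes at 6 h, while in open eyes the times overlapped. Its log2 difference was 0.31 ± 0.08 (SE) in goggled eyes, 0.27 ± 0.08 in open eyes and 0.29 ± 0.07 over chick means, with limma adjusted p of 0.016, 0.0451 and 0.0185. The rise in open eyes was close to the threshold and was lost when any of 16 of the 24 arrays was left out, with an adjusted p up to 0.100. It was also lost without the filter on dim probe sets (0.0574), after quantile normalization (0.0851) and with only the arrays compared (0.121). It held without open 6 h replicate 2, open 3 d replicate 2, goggled 6 h replicates 1, 2 and 4 and goggled 3 d replicates 2, 4 and 6.

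FDPS, which joins isoprene units into farnesyl pyrophosphate just before FDFT1, rose in goggled eyes. The lowest, median and highest of its signals were 316.6, 386.1 and 453.6 in goggled eyes at 3 d, against 162.4, 279.5 and 345 in goggled eyes at 6 h. For open eyes the values were 232.2, 319.2 and 434 at 3 d and 215.9, 241.3 and 300.2 at 6 h. The ranges overlapped in both kinds of eye. This made a log2 difference of 0.54 ± 0.15 (SE) in goggled eyes, 0.39 ± 0.15 in open eyes and 0.46 ± 0.13 over chick means, with limma adjusted p of 0.0186, 0.101 and 0.0226.

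HSD17B7, a reductase of the sterol ring, passed in goggled eyes. Its lowest, median and highest signals were 123.6, 151.2 and 166.4 in goggled eyes at 3 d, against 104.5, 123.6 and 132.1 in goggled eyes at 6 h. Open eyes had 120.7, 134.7 and 150.7 at 3 d and 112.9, 126.9 and 136.7 at 6 h, all higher at 3 d but with overlapping ranges. The log2 difference was 0.26 ± 0.08 (SE) in goggled eyes and 0.07 ± 0.08 in open eyes, with limma adjusted p of 0.0336 and 0.618. The difference between these changes did not pass (limma adjusted p = 1). The call in goggled eyes was lost without goggled 6 h replicate 2, 3 or 6, or goggled 3 d replicate 1, 2, 4, 5 or 6, with an adjusted p up to 0.0834. A fit limited to goggled eyes also lost it (adjusted p = 0.0672), and the second probe set of HSD17B7 gave 0.10 in goggled eyes and did not pass (0.535).

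CYP51A1 was the sterol synthesis gene that fell. In goggled eyes, with the signals given above, 5 of 6 arrays were below the background level at 3 d and 1 of 6 at 6 h, so part of the values compared lay within the background. Its log2 difference was -0.61 ± 0.19 (SE) in goggled eyes, -0.30 ± 0.19 in open eyes and -0.45 ± 0.15 over chick means, with limma adjusted p of 0.0387, 0.386 and 0.0484. The fall in goggled eyes no longer passed after quantile normalization, median centring, with an offset of 64, without the filter on dim probe sets or with only the arrays compared. It was also lost without goggled 6 h replicate 2, 3, 4 or 6 or goggled 3 d replicate 1, 2 or 6 (adjusted p up to 0.0986). Over chick means the call was lost when any of 9 of the 12 chicks was left out, under both scalings, without the filter and with offsets of 4 and 64 (adjusted p up to 0.249).

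Most other genes of the mevalonate and sterol steps did not pass in any time comparison. MVD had a log2 difference of 0.45 ± 0.15 (SE) in goggled eyes with a limma adjusted p of 0.0504, and of 0.08 ± 0.15 in open eyes. MSMO1, the oxidase that works with NSDHL, had lowest, median and highest signals of 2529.6, 3102 and 3613 in goggled eyes at 3 d and 2274, 2535 and 2857 in goggled eyes at 6 h, with overlapping ranges (log2 0.25 ± 0.09, limma adjusted p = 0.0626). In open eyes MSMO1 ranged from 2519.6 to 3039.7 at 3 d and from 2265 to 2921 at 6 h. NSDHL differed by 0.33 in goggled and 0.06 in open eyes, and LSS, the lanosterol synthase, by 0.27 and 0.11. SC5D, a sterol desaturase, differed by 0.19 and 0.43.

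Genes of the early steps did not pass either. HMGCS1, which makes the precursor of mevalonate, had lowest, median and highest signals of 592.4, 731 and 1007 in goggled eyes at 3 d and 581.7, 639 and 862.7 in goggled eyes at 6 h. The open eyes gave 511.9, 675.7 and 765.3 at 3 d and 534.7, 755.8 and 960.8 at 6 h. The 4 groups overlapped broadly, and the log2 difference over chick means was 0.00 ± 0.11 (SE; limma adjusted p = 0.996). For MVK and PMVK, the kinases that act on mevalonate, the difference over chick means was 0.05 and -0.18. For SQLE, which follows FDFT1 in the pathway, it was -0.08, and none of the 3 passed.

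Among the regulators, SREBF2 was the member that rose. Signals had a lowest, median and highest value of 320.4, 448 and 503.3 in goggled eyes at 3 d, against 248.6, 303.7 and 352.9 in goggled eyes at 6 h. For open eyes the values were 365.6, 423.4 and 621.7 at 3 d and 266.6, 311.5 and 326.2 at 6 h. The open eyes of the times were apart, and the goggled eyes overlapped slightly. On the log2 scale the difference was 0.48 ± 0.13 (SE) in goggled eyes, 0.58 ± 0.13 in open eyes and 0.53 ± 0.11 over chick means, with limma adjusted p of 0.0167, 0.00808 and 0.00552. SCAP, INSIG1 and INSIG2 did not pass, with differences over chick means of 0.19, -0.05 and 0.06.

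Of the fatty acid synthesis genes, FASN rose. The lowest, median and highest of its signals were 890.7, 1022.1 and 1129.3 in goggled eyes at 3 d, against 663.6, 769.8 and 904 in goggled eyes at 6 h. Open eyes had 833.3, 1004 and 1200.2 at 3 d and 626, 730.7 and 851.5 at 6 h. The ranges of the times touched only at their edges in either eye. This made a log2 difference of 0.36 ± 0.09 (SE) in goggled eyes, 0.45 ± 0.09 in open eyes and 0.41 ± 0.08 over chick means, with limma adjusted p of 0.0146, 0.00576 and 0.00347.

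The enzymes that feed FASN did not pass. ACLY, which supplies acetyl-CoA from citrate, differed by 0.23 in goggled and 0.17 in open eyes without passing. ACACA, the carboxylase that makes malonyl-CoA, had lowest, median and highest signals of 44.1, 78.9 and 95.6 in goggled eyes at 3 d and 77.3, 100.9 and 163.3 in goggled eyes at 6 h. The open eyes gave 66, 81 and 136.3 at 3 d and 58.6, 88.4 and 156.7 at 6 h. The goggled eyes thus lay lower at 3 d with overlap, and the difference of -0.47 ± 0.20 (SE) did not pass (limma adjusted p = 0.113). It was -0.08 ± 0.20 in open eyes.

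FADS2, the desaturase that opens the synthesis of long polyunsaturated fatty acids, rose in both kinds of eye. Its lowest, median and highest signals were 236.1, 302.5 and 381.2 in goggled eyes at 3 d, against 166.9, 174.8 and 202.4 in goggled eyes at 6 h. For open eyes the values were 202.2, 294.7 and 394 at 3 d and 160.6, 198.5 and 218.1 at 6 h. The goggled eyes of the times were apart, and in open eyes the lowest value at 3 d fell within the range at 6 h. The log2 difference was 0.72 ± 0.12 (SE) in goggled eyes, 0.57 ± 0.12 in open eyes and 0.64 ± 0.11 over chick means, with limma adjusted p of 8.69e-04, 0.00702 and 0.00227. FADS1, the desaturase of a later step, differed by -0.30 and -0.09 in goggled and open eyes and did not pass.

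ELOVL6 fell by its brightest probe set. Signals had a lowest, median and highest value of 486.9, 566.8 and 603 in goggled eyes at 3 d, against 663.2, 755.2 and 841.4 in goggled eyes at 6 h. Open eyes had 434.2, 517.6 and 556.4 at 3 d and 524.5, 670.8 and 696.7 at 6 h. The goggled eyes of the times were apart, and in open eyes 1 array at 6 h, replicate 3, lay within the range at 3 d. On the log2 scale the difference was -0.44 ± 0.09 (SE) in goggled eyes, -0.36 ± 0.09 in open eyes and -0.40 ± 0.06 over chick means, with limma adjusted p of 0.00329, 0.0173 and 0.00176. The fall in open eyes no longer passed after median centring (0.0726) or with only the arrays compared (0.0642). Its other probe sets did not fall by this test.

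The other elongases did not pass. ELOVL2 differed by -0.27 ± 0.10 (SE) in goggled and -0.27 ± 0.10 in open eyes and by -0.27 ± 0.09 over chick means (limma adjusted p = 0.0782, 0.101 and 0.0508). ELOVL4, which makes the very long chains of photoreceptors, differed by -0.14 in goggled and -0.22 in open eyes, and ELOVL5 by -0.13 and 0.02. As a role, 5 of 6 tested genes of desaturation and elongation had lower values over chick means (median -0.19), while 11 of 14 genes of sterol synthesis had higher ones (median 0.18). After median centring the count of lower values was 4 of 6, with a median of -0.09. Before centring, 16669 of all 26913 probe sets also had lower values over chick means, and 10244 had higher ones. The lower genes of the role include ELOVL6, whose probe sets differed in sign.

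Groups that did not overlap were few. In goggled eyes the 6 arrays at 3 d lay above all 6 at 6 h for FDFT1 and FADS2 and below them for the brightest probe set of ELOVL6. Of all probe sets, 2.48% were apart upwards and 3.62% downwards, so the share of members apart downwards was near that of all probe sets. Another probe set of ELOVL6 ran the other way in goggled eyes (log2 0.20). In open eyes they were above for DHCR7 and SREBF2 and below for 0 members, where 1.41% and 2.01% of all probe sets were apart.

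**Figure D3:**
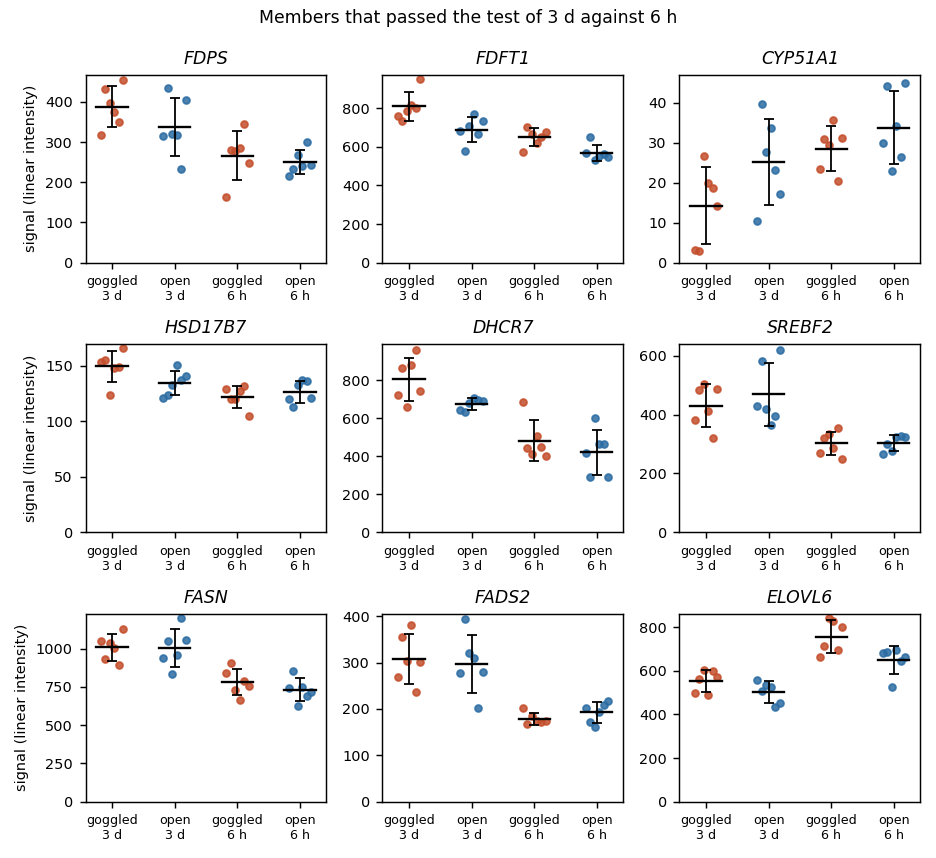
Signals (linear intensity) by array of the 9 members that passed in a comparison of 3 d with 6 h, in goggled eyes (orange) and open eyes (blue), with the mean and SD of 6 arrays in black. Goggled eyes at 3 d and 6 h did not overlap for FDFT1, FADS2 and the brightest probe set of ELOVL6, and open eyes did not for DHCR7 and SREBF2.

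Several calls were lost without the arrays that stood apart in tissue markers. Without the 3 arrays high in muscle markers, members called in goggled eyes numbered 5, of which FDPS, DHCR7 and FADS2 rose and CYP51A1 and ELOVL6 fell, where 1.69% and 3.77% of all probe sets rose and fell. FASN, SREBF2, FDFT1 and HSD17B7 in goggled eyes then had limma adjusted p of 0.0833, 0.0887, 0.0553 and 0.0523. FDFT1 in open eyes had 0.0657, and over chick means FDPS, FDFT1 and CYP51A1 had 0.0620, 0.115 and 0.0848. Without the chicks of the 4 arrays high in choroid markers, 2 members were called over chick means, DHCR7 with a rise and ELOVL6 with a fall, where 0.624% and 2.58% of all probe sets rose and fell. FADS2, FASN, SREBF2, FDPS, FDFT1 and CYP51A1 over chick means then had limma adjusted p of 0.0565, 0.0560, 0.0716, 0.0988, 0.0725 and 0.123. Without these arrays, FADS2 and FDFT1 in open eyes had 0.0527 and 0.0616, while in goggled eyes 8 members rose and 2 fell, where 3.34% and 7.67% of all probe sets did. These settings also leave fewer arrays, and the part of other tissue in the results was not tested. All 9 pigment epithelium markers had higher values at 3 d than at 6 h, with medians of 0.33 in goggled and 0.30 in open eyes, and 0 passed the test in limma (0 in goggled and 1 in open eyes at an unadjusted p under 0.05). Their mean on the log2 scale ranged from 8.34 to 9.96 in goggled eyes at 3 d, from 8.22 to 9.51 in open eyes at 3 d, from 8.24 to 9.08 in goggled eyes at 6 h and from 8.24 to 9.24 in open eyes at 6 h, and their part in the members' results was not tested.

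Single markers of retinal cells passed between the times. Over chick means TRPM1 of bipolar cells rose by 0.45, ARR3 of cones by 0.42 and SLC1A3 of Mueller glia by 0.25 (limma adjusted p = 0.00626, 0.0407 and 0.023). TFAP2A of amacrine and horizontal cells fell by 0.48, AQP4 of Mueller glia by 0.48 and RBPMS2 of ganglion cells by 0.35 (adjusted p = 0.0239, 0.00753 and 0.0146). The rises were 33.3% of the bipolar, 20% of the rod and cone and 14.3% of the Mueller glia markers tested. The falls were 14.3% of the amacrine and horizontal, 14.3% of the Mueller glia and 25% of the ganglion cell markers. Of all probe sets, 5.24% rose and 11.7% fell, and these lists are short. As lists, values were higher over chick means for 3 of 5 rod and cone, 3 of 3 bipolar, 4 of 7 amacrine and horizontal, 1 of 4 ganglion and 5 of 7 Mueller glia markers, with medians of 0.21, 0.13, 0.04, -0.23 and 0.11. Red blood cell markers were lower for 3 of 3 (median -0.48), striated muscle markers for 4 of 4 (-0.42) and choroid, sclera and vessel markers for 7 of 11 (-0.11), and 0 of these passed in limma or had an unadjusted p under 0.05. The part of all these markers in the members' results was not tested. Markers of oligodendrocytes and myelin, a tissue rich in newly made cholesterol, had group medians of 7.80 and 7.88 in goggled and open eyes at 3 d and 7.81 and 7.85 at 6 h. Of 5 fat cell markers, 4 had mean signals below the background level.

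Several members were represented by more than 1 probe set, which allowed the same gene to be read more than once. Whether the probe sets of a gene read the same transcript was not tested. Of the 27 tested members, 13 had further probe sets that were tested, and for 6 of these the probe sets differed in sign over chick means. The 3 probe sets of ELOVL6 gave log2 differences of -0.40, -0.04 and 0.25. Signals of its probe set number 3 averaged 430.6 ± 32.7 (SD, n = 6) in goggled eyes at 3 d, 414 ± 33.6 in open eyes at 3 d, 375.6 ± 56.8 in goggled eyes at 6 h and 331.9 ± 29.6 in open eyes at 6 h. That probe set rose in open eyes and over chick means (limma adjusted p = 0.0421 and 0.0429), opposite to the brightest, so the array gives no single direction for ELOVL6.

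For LSS the second probe set rose where the brightest did not pass. It averaged 82.8 ± 10.8 (SD, n = 6) in goggled eyes at 3 d, 90.0 ± 17.9 in open eyes at 3 d, 62.3 ± 13.4 in goggled eyes at 6 h and 60.3 ± 14.7 in open eyes at 6 h. Its log2 difference was 0.41 ± 0.11 (SE) over chick means (limma adjusted p = 0.0215), against 0.19 and -0.20 for LSS probe sets number 1 and 3. FASN's probe sets ran alike, with 0.41 for the first and 0.26 for the second, which did not pass (limma adjusted p = 0.125). The other genes whose probe sets differed in sign were MVK (0.05 and -0.19), SQLE (-0.08 and 0.14), SC5D (0.31 and -0.01) and SCAP (0.19, -0.15 and -0.09), and none of these probe sets passed. For HSD17B7, ACLY, INSIG1, ACACA, FADS1 and ELOVL5 the signs were shared. Probe set number 2 of SC5D and of ACACA had mean signals of 16.0 and 15.4, below the background level, which limits their signs. DHCR7, FDFT1, FDPS, SREBF2 and FADS2 rested on 1 tested probe set each.

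**Figure D4:**
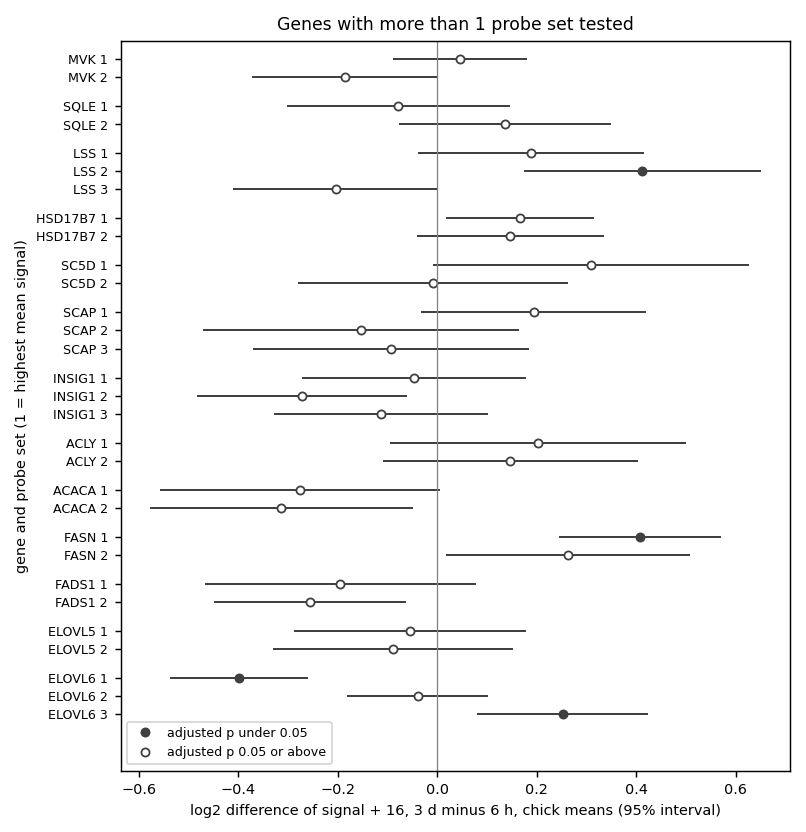
Log2 difference of signal + 16, 3 d minus 6 h over chick means, with 95% intervals, for each tested probe set of the 13 members with more than 1, numbered by mean signal. The 3 probe sets of ELOVL6 lay at -0.40, -0.04 and 0.25, with adjusted p under 0.05 (filled) for numbers 1 and 3.

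The members also differed in how far the chick means spread and how far the eyes of a chick differed. For 6 of 27 the SD of the chick means exceeded the SD of the goggled minus open difference, both on the log2 scale and around the group means. These SDs are not on the same scale, since a mean of both eyes varies less than their difference even where the eyes are independent. Which of the SDs is larger thus does not by itself say which source of spread was larger. PMVK had the highest ratio of the SDs, with 0.43 for chick means and 0.18 for the eye difference, followed by ACLY with 0.26 and 0.16. ELOVL6 had the lowest ratio, with 0.07 for chick means and 0.24 for the eye difference, and NSDHL had 0.15 and 0.41. The SDs of FDFT1 were 0.10 and 0.11, among the lowest between the eyes of a chick.

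Related genes outside the 31 were read from 6 further lists, of which 71 genes were tested. In goggled eyes 5 rose and 3 fell at 3 d against 6 h, in open eyes 2 rose and 4 fell, and over chick means 5 rose and 6 fell (limma, adjusted p under 0.05). These are 7.04% and 4.23% of the related genes in goggled eyes, 2.82% and 5.63% in open eyes and 7.04% and 8.45% over chick means, near the shares of all probe sets given above (4.13% and 8.56%, 2.62% and 4.72%, and 5.24% and 11.7%). The median log2 difference over chick means was 0.02, close to 0 and to the -0.07 of all probe sets. In goggled against open eyes 0 of 71 passed limma at 3 d and 0 at 6 h, with 4 and 3 at an unadjusted p under 0.05.

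Of 6 other genes of sterol synthesis, 2 rose over chick means and all 6 had higher values. The rises are 33.3% of this short list. Of all 26913 probe sets, 5.24% rose and 10244 had higher values. IDI2, an isomerase of the isoprene unit, averaged 1527 ± 188 (SD, n = 6) in goggled eyes at 3 d, 1416 ± 95.2 in open eyes at 3 d, 1083 ± 74.6 in goggled eyes at 6 h and 1092 ± 135 in open eyes at 6 h. It rose by 0.48 in goggled eyes, 0.38 in open eyes and 0.43 over chick means on the log2 scale (limma adjusted p = 0.00184, 0.0145 and 0.00206). LBR, a protein of the nuclear envelope with sterol reductase activity, rose by 0.48 in goggled eyes and by 0.39 over chick means (adjusted p = 0.0067 and 0.014).

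Of 23 genes of sterol uptake, transport and turnover, 1 rose and 2 fell over chick means. These are 4.35% and 8.7% of the list, no more than the 5.24% and 11.7% of all probe sets that rose and fell. ABCG1, which exports cholesterol from cells, averaged 84.6 ± 19.7 (SD, n = 6) in goggled eyes at 3 d, 97.0 ± 14.3 in open eyes at 3 d, 153.8 ± 21.2 in goggled eyes at 6 h and 166.9 ± 27.7 in open eyes at 6 h. It fell by 0.77 in goggled eyes, by 0.69 in open eyes and by 0.73 over chick means on the log2 scale (limma adjusted p = 7.55e-04, 0.00285 and 8.21e-04). OSBPL2, an oxysterol-binding protein, rose by 0.54 over chick means, and LRP8, a receptor of the lipoprotein receptor family, fell by 0.27 (limma adjusted p = 0.0142 and 0.0227).

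In the lists of fatty acid metabolism few genes moved. Over chick means, 0% rose and 9.09% fell in synthesis and activation, and 0% and 12.5% in desaturation and elongation. In binding, transport and storage 6.25% and 12.5% did, where 5.24% and 11.7% of all probe sets rose and fell. SLC27A4, which brings fatty acids into cells, fell by 0.64 over chick means, and HACD1, a dehydratase of the elongation cycle, fell by 0.56 (limma adjusted p = 0.00354 and 0.00738). DGAT2, which completes triglycerides, rose by 0.30 over chick means, and PPARA, a nuclear receptor for fatty acids, fell by 0.28 (adjusted p = 0.0331 and 0.0415). ACSL4, which activates polyunsaturated fatty acids, rose by 0.32 in goggled eyes (adjusted p = 0.0291), and OXSM, of mitochondrial fatty acid synthesis, fell by 0.43 in open eyes and by 0.31 over chick means (adjusted p = 0.016 and 0.016). Of 7 genes that process the sterol regulators, 1 (14.3%) rose in goggled eyes and over chick means. Of all probe sets, 4.13% and 5.24% did so. The gene was ERLIN1, a membrane protein of the endoplasmic reticulum, which rose by 0.34 in goggled eyes and by 0.21 over chick means (adjusted p = 0.00964 and 0.0494). The difference of these changes between the eyes passed for no gene of the 26913 probe sets.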

How the data were processed

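RNA of 24 eyes was measured on 1 array each. The authors deposited linear intensity values, 1 per probe set and array, for 38535 probe sets. The submitters' processing notes list GCOS 1.4 and RMA without a role, so they do not say which program made these values. The 2% trimmed mean lay between 150.026 and 150.031 on all arrays, while the array medians ran from 30.1 to 44.1. The arrays thus shared a trimmed mean but not a median. After 96 control probe sets were left out, the deposited intensity plus 16 was taken to log2, and probe sets with a mean under 14.4, the 30th percentile, were dropped. Fold changes on this scale understate the change of dim genes. limma 3.58.1 in R 4.3.3 fitted 4 group means, with 20 residual degrees of freedom, eBayes and Benjamini-Hochberg adjustment over 26913 probe sets at 0.05. Time was also tested on 12 chick means. Figures were drawn with matplotlib 3.10.9.

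Replicate numbers come from the labels. Deviations from the group mean of goggled and open eyes with the same number correlated at 0.101 to 0.444 at 3 d and 0.222 to 0.424 at 6 h, against means of -0.05 and -0.07 for other numbers, so a number was taken as 1 chick. Goggled 3 d replicate 3 correlated more with open replicate 2 (0.289) than with its own number.

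Members and lists were chosen with earlier results of these data known. All members are named. Those called in a comparison, or among the 5 smallest p-values of one, are given with their signals. Related genes are named where called. Symbols came from the platform annotation, and those of 26853 probe sets were matched by gene ID. Offsets, filters, normalization, weights, blocks, probe set choice and arrays left out were varied. The fit was tested on simulated data.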

Additional observations from a re-analysis of the deposited data

Results flagged for a closer look

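In 6 of 108 groups of member signals, 1 array lay far from the other 5 of its group. Chance alone gives about 1 in 20 such groups. FDFT1 had a signal of 649.5 on open 6 h replicate 2, against 534.3 to 566.8 on the others. SQLE had 818.6 on goggled 6 h replicate 4, against 482.2 to 574.4. LSS had 74.3 on open 6 h replicate 3, against 103 to 124.1. On that array ELOVL6 was also low, with 524.5 against 643.7 to 696.7. ELOVL4 had 329.3 on goggled 3 d replicate 3, against 441.9 to 510.3, and this array was also high in choroid and muscle markers, whose part was not tested. ELOVL5 had 327.1 on goggled 3 d replicate 1, against 431 to 485.8.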

How the results depend on the processing

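With the replicate block, which takes the chick as a fixed term, 0 members passed in each comparison of the eyes, and the unadjusted counts stand in the text. With the random block, probe sets called over both times numbered 11, against 2, and members stayed at 0. Without the arrays high in choroid markers, 1 member rose and 1 fell over chick means, where 0.624% and 2.58% of all probe sets did. Without those high in muscle markers, 4 rose and 1 fell over chick means, where 1.25% and 3.73% of all probe sets did. In goggled eyes 3 then rose and 2 fell, where 1.69% and 3.77% did. Leaving out 1 array gave 7 to 10 members called in either direction in goggled eyes, where 2.94% to 4.54% of all probe sets rose and 6.08% to 9.26% fell. In open eyes it gave 5 to 6, where 1.63% to 3.02% rose and 3.07% to 5.18% fell. Leaving out 1 chick gave 7 to 9 over chick means. Without 3 d replicate 1, for example, 3.97% and 9.46% of all probe sets rose and fell there.

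The median log2 difference of the members moved with the scaling. Median centring gave 0.302 in goggled eyes, 0.142 in open eyes and 0.261 over chick means, and 0.112 for goggled against open eyes at 3 d. Over chick means it was 0.119 after quantile normalization, 0.0556 with no filter and 0.0556 with the second probe set, and in goggled eyes 0.139 with an offset of 64 and 0.0885 with the second probe set. Without the arrays high in choroid markers the goggle median was 0.125 at 3 d and 0.0111 at 6 h. Leaving out 1 array gave medians of 0.124 (goggled 6 h replicate 2) to 0.226 in goggled eyes and 0.0150 (open 3 d replicate 3) to 0.0923 (open 3 d replicate 2) in open eyes. For goggled against open eyes the range was 0.0537 to 0.107 (open 3 d replicate 3) at 3 d and -0.0568 to 0.0111 (open 6 h replicate 5) at 6 h. Leaving out 1 chick gave 0.119 to 0.175 over chick means. By the second probe set ELOVL6 in open eyes turned to 0.0223 and the change of the goggle effect of HSD17B7 to -0.0987. The cause was not tested. Signals near background limit CYP51A1, SREBF1 and SCD, and the second probe sets of SC5D and ACACA.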

Other observations

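The W-linked HINTW signal was high in 4 and low in 2 chicks at each time, and the eyes of a chick were alike in all. Averaged over the eyes of a chick, FDPS had 333.2 ± 73.0 (SD) in 8 chicks with high signal and 264.6 ± 55.0 in 4 with low signal, a difference that did not pass in limma (adjusted p = 0.136). HMGCS1, on chromosome Z, had 683.1 ± 91.6 and 748.2 ± 95.9. With this signal as a covariate, 8 members rose and 2 fell in goggled eyes, where 4.57% and 9.53% of all probe sets did, 6 and 1 in open eyes (3.05% and 5.19%), and 6 and 2 over chick means (5.8% and 12.7%).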
